A study of Mus musculus with 2 samples.

Results

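The cells described are CD4 helper and regulatory T cells, 135 of the 3173 cells kept in 2 single-cell libraries of mouse colon. A cell was taken as a member by its own transcripts. It had 2 or more unique molecular identifiers (UMIs, each a counted transcript) summed over the T cell genes Cd3d, Cd3e, Cd3g, Cd5 and Cd6, and 1 or more summed over the helper genes Cd4, Icos, Cd40lg, Tnfrsf4 and Ctla4. It had fewer than 4 UMIs of the cytotoxic genes Nkg7, Xcl1, Ctsw, Cd7, Cd160 and Klra7, none of the macrophage receptor gene Csf1r, and fewer than 3 of the B cell genes Cd79a, Cd79b and Ms4a1. The members were thus chosen by measured values of these genes, whose levels are given as a description only.

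The libraries came from the colons of bone-marrow chimeras, in which CD45.2 donor marrow was placed in CD45.1 recipients. In the KO library the donors lacked the IL-10 receptor (IL-10R KO; the Il10rb chain, by the study's methods). In the DKO library the donors also lacked ceramide synthase 2 (IL-10R/CerS2 DKO), which builds ceramides with very long acyl chains. Both groups thus carried the receptor deletion, and no library with an intact receptor was analysed here. The deletions lie in all cells of the donor marrow, so T cells carry them as macrophages do. The sort used CD45 and the myeloid antigens CD64, CD11c and CD11b, and was meant to leave T cells out. The members are therefore T cells that passed it and may not stand for colonic T cells at large. There was 1 library per genotype, so no difference has a replicate check and no test was made. Intervals are exact 95% intervals, the limit given for a count of 0 is 3 counts of the total, which is lower than the exact upper bound, and both cover counting error only.

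CD4 T cells recognize peptides shown on MHC class II and direct other immune cells through cytokines. Type 1 helper cells make interferon-gamma, type 17 helper cells make IL-17A, IL-17F and IL-22 and are common in the gut wall, and regulatory T cells, marked by the transcription factor Foxp3, restrain inflammation. IL-10 acts on T cells and macrophages through a receptor of the chains Il10ra and Il10rb, and its loss in mice leads to colitis.

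Members were 100 of 2443 kept KO cells, or 4.09% (3.34 to 4.96), and 35 of 730 kept DKO cells, or 4.79% (3.36 to 6.61). Set against all T cells and cytotoxic lymphocytes, their share was 35.3% (29.8 to 41.2) among KO cells and 33.3% (24.4 to 43.2) among DKO cells. The intervals of both shares overlapped between libraries. KO members had a median of 3672 UMIs per cell (1119 to 26102) and DKO members 3227 (951 to 8249), and the members' summed UMIs, against which levels were scaled to counts per 1000000 UMIs (CPM), were 462323 and 123067. A count of 3 UMIs, the floor used for genes found at 0, was worth 6.49 CPM in KO and 24.4 CPM in DKO.

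Transcripts of Icos, a costimulatory receptor, were found in 86 of 100 KO and 29 of 35 DKO members, and those of Ctla4, an inhibitory receptor, in 88 and 22. Tnfrsf4 (OX40) was found in 70 and 21 members, and Cd40lg, the helper signal to B cells and myeloid cells, in 32 and 10. Cd4 itself was sparse, with 72 UMIs in 41 KO members and 12 UMIs in 7 DKO members. Cd8a, the CD8 coreceptor chain, had 0 UMIs in KO and 3 UMIs in 1 DKO cell, and Cd8b1 had 2 UMIs in each library. Trac, the alpha-chain constant gene of the T cell receptor, was found in 67 and 24 members, whereas Trdc, that of the delta chain, had 3 UMIs in 2 KO members and 0 in DKO. The gamma-chain gene Tcrg-C1 had 20 UMIs in 16 KO members and 2 UMIs in 2 DKO members. The gamma-chain variable gene Trgv2 had 8 UMIs in 5 KO and 6 UMIs in 5 DKO members. Thus the Cd4 transcript was seen in a minority of members, and Cd8a, Cd8b1 and Trdc were at or near 0. Gamma-chain transcripts were found in more members than Trdc.

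Several members lay close to the limits of the rule. In KO, 6 members had exactly 2 UMIs of the T cell genes, 1 had 1 UMI of the helper genes and 13 had 3 UMIs of the cytotoxic genes. In DKO these were 6, 9 and 4 members. Just outside, with the rest of the rule met, 6 KO and 3 DKO cells had 1 UMI of the T cell genes, 17 and 10 had no helper gene UMI, and 6 and 1 had 4 UMIs of the cytotoxic genes. The limit on cytotoxic genes left out most: 107 KO and 14 DKO cells in all. Helper genes had a median of 12 UMIs per KO member (1 to 77) and 6 per DKO member (1 to 46), and a single helper gene carried the membership of 8 KO and 10 DKO cells. DKO members were therefore nearer the lower limit for the helper genes.

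RNA of other cells was present in a few members. The 14 monocyte and macrophage genes summed to 282 UMIs in 28 of the 100 KO members, with 49.6% of them in 1 cell, and to 12 UMIs in 5 of the 35 DKO members; Csf1r was at 0 by the rule, and 11 of the 14 genes were at 0 in DKO. Per cell the sum ran from 0 to 140 in KO and from 0 to 5 in DKO. The B and plasma cell genes summed to 40 UMIs in 19 KO members, 28 of them Ighm, and to 12 UMIs in 2 DKO members, 11 of them Igkc in 1 cell. Cd79a, Cd79b and Ms4a1, which the rule limited, and Pax5 were at 0. Further, 7 of 8 dendritic cell genes were at 0 in KO and all 8 in DKO. Of the sort antigens, Itgam (CD11b) had 2 UMIs in 2 KO members and 0 in DKO, Itgax (CD11c) had 0 in both, and Fcgr1 (CD64) had 3 and 0. With Ptprc (CD45) added, the 4 genes summed to 270 UMIs in 89 KO and 85 UMIs in 30 DKO members. So the transcripts of the myeloid sort antigens were at or near 0 in these cells, while that of CD45 was found in most. Neutrophil genes summed to 57 UMIs in 25 KO and 7 UMIs in 5 DKO members, with Csf3r and Cxcr2 at 0. The KO sum was mainly Il1r2, with 39 UMIs in 12 members that had an Il17a, Il17f or Il22 UMI and 13 UMIs in 8 others. S100a8 had 2 and Mmp9 3 UMIs in KO, so the sum does not by itself show neutrophil RNA. The 6 epithelial genes summed to 4 and 0 UMIs. Of the 2 libraries' barcodes 1 was shared, and it was not a member.

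The targeted genes were checked in the members. Of Cers2 (GRCm38, chromosome 3, 95314791 to 95323599, plus strand), 20 UMIs were found in 14 KO members and 1 UMI in 1 DKO member, or 43.3 CPM (26.4 to 66.8) and 8.13 CPM (0.206 to 45.3). Il10rb (chromosome 16, 91406164 to 91425834, plus strand) had 7 UMIs in 7 KO members and 0 in DKO, which allows up to 8.57% of cells with a UMI at this depth. Il10ra (chromosome 9, 45253837 to 45269149, minus strand) had 0 UMIs in all 135 members, against 608 UMIs in the Csf1r-positive cells of KO and 144 in those of DKO. That allows up to 3.0% of KO and 8.57% of DKO members with a UMI. Il10rb UMIs over all barcodes numbered 74 (KO) and 14 (DKO), and those of Il10ra 870 and 233. These counts do not show which receptor chain was deleted, and they are no check of that deletion.

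**Figure D1:**
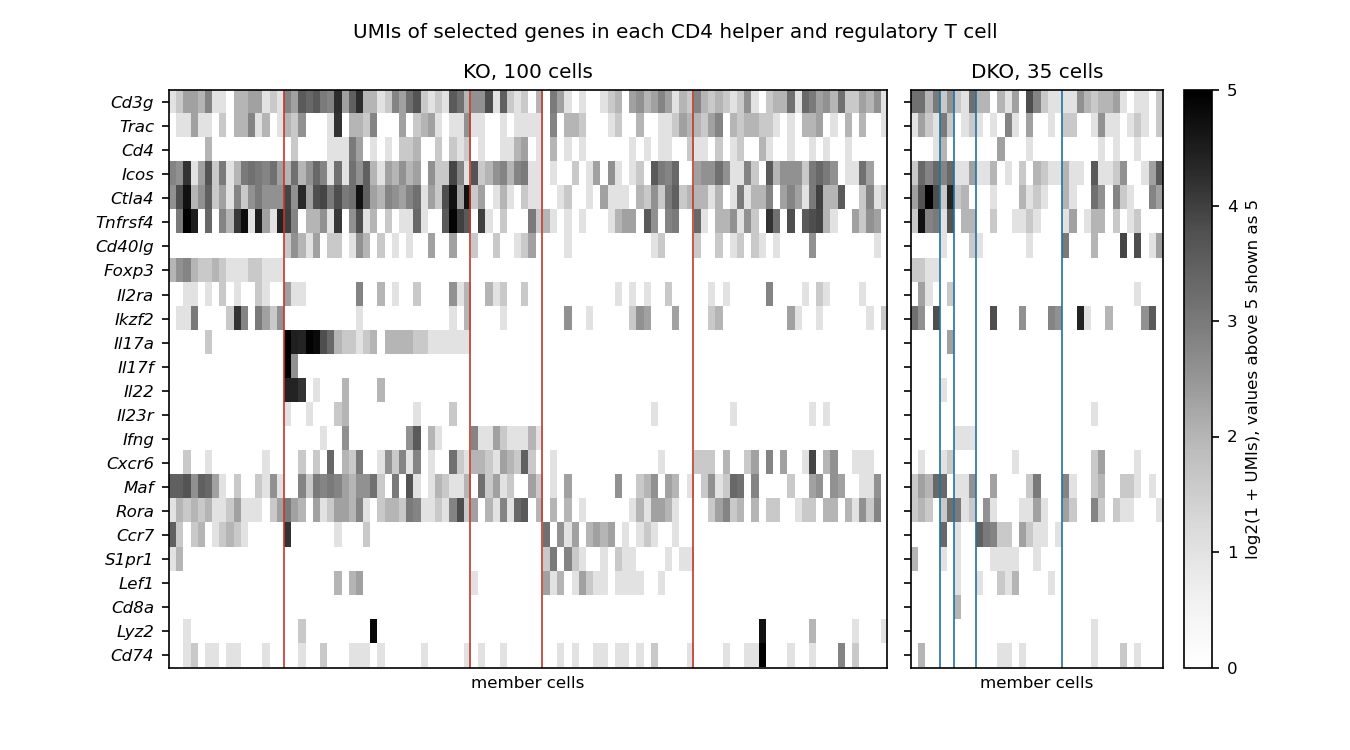
Each column is 1 member cell (100 KO, left; 35 DKO, right) and each row a gene, shaded by log2(1 + UMIs). Coloured lines separate, from left to right, cells with a Foxp3 UMI, other cells with an Il17a, Il17f or Il22 UMI, others with Ifng, others with Ccr7, Lef1 or S1pr1, and the rest (27 KO and 14 DKO cells); the IL-17 block of KO is wide and that of DKO holds 2 cells.

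The cytokine genes of type 17 helper cells were lower in DKO than in KO members. Il17a (chromosome 1, 20730905 to 20734496, plus strand), which encodes the signature cytokine of these cells, had 336 UMIs in 26 of 100 KO members and 4 UMIs in 1 of 35 DKO members. KO members had 727 CPM (651 to 809) and DKO members 32.5 CPM (8.86 to 83.2), which gives a log2 ratio of DKO over KO of -4.32 (-6.37 to -3.11). Among the KO carriers, 19 cells had 1 to 3 UMIs, 6 had 9 to 30, and 1 had 179. That last cell held 53.3% of the KO UMIs, and without it the KO members had 157 UMIs or 346 CPM, above the upper bound of the DKO interval. UMIs of 1 cell are not independent of each other, so these intervals do not cover the spread between cells.

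The share of cells with an Il17a UMI gave a less certain picture, because DKO had few members and depth differed. With each cell thinned to 1000 UMIs, Il17a was found in 14.0% (7.87 to 22.4) of 100 KO members and in 0 of 34 DKO members, which allows a share of up to 8.82%. Without thinning the shares were 26% (17.7 to 35.7) and 2.86% (0.0723 to 14.9). Cells with a UMI of Il17a, Il17f or Il22 made up 27.0% (18.6 to 36.8) of KO and 5.71% (0.700 to 19.2) of DKO members. After thinning the KO interval reached below the DKO limit, which by the exact interval is 10.3%, whereas the unthinned intervals of Il17a lay apart. As a background, Il17a was found in 7 of 166 cytotoxic lymphocytes (30 UMIs), 1 of 1266 Csf1r-positive cells and 0 of 180 B cells of KO, with median depths of 4227, 5716 and 2502 UMIs. The 60 cytotoxic lymphocytes of DKO had 0 Il17a UMIs. Il17a was therefore found mainly in the members, and the KO carriers were deeper (median 4604 UMIs) than the other KO members (3634). Of the 26 carriers, 3 had more than 1 UMI summed over the macrophage genes Lyz2, Apoe, Cd14, C1qa, C1qb and C1qc.

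Il17f (chromosome 1, 20777146 to 20790617, minus strand), the neighbouring gene of the same family, had 70 UMIs in 2 KO members and 0 in DKO. Its 151 CPM in KO was 6.21-fold the DKO floor. However, 92.9% of these UMIs lay in the cell with the highest Il17a count, and without it Il17f was at 11.0 CPM, under the DKO floor. Il22 (chromosome 10, 118204942 to 118210047, plus strand), which acts on the epithelium, had 64 UMIs in 6 KO members and 1 UMI in 1 DKO member, or 138 and 8.13 CPM (log2 ratio -3.52, -9.42 to -1.56). Il22 was more evenly spread, since its highest KO cell held 31.3% of the UMIs.

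Other genes of the type 17 list differed less. Of 14 genes, 8 had the 30 or more UMIs over both libraries that were required for a count of genes past 2-fold. Among these 8, 4 were past 2-fold lower in DKO, 0 were past 2-fold higher and all 8 had ratios below 0, with a median log2 ratio of -0.80. Over all 2602 genes with 30 or more UMIs, 7.3% were past 2-fold lower and 3.42% past 2-fold higher, and the median was -0.01. The fourth gene past 2-fold was Tmem176a, an ion channel gene of type 17 cells and myeloid cells, at 190 and 89.4 CPM (log2 ratio -1.03, -2.14 to -0.18). The transcription factor genes Rora and Maf were nearly level, with 504 and 479 CPM (log2 ratio -0.06, -0.51 to 0.35) and 595 and 528 CPM (-0.16, -0.58 to 0.22). Il23r, the IL-23 receptor gene, had 14 UMIs in KO and 1 in DKO, too few for a comparison. In KO 1 cell held 278 of the list's 1332 UMIs, or 20.9%, and the sum was not computed without that cell. Summed over the list the log2 ratio was -0.90 (-1.14 to -0.69), and with Il17a, Il17f and Il22 left out it was -0.32 (-0.56 to -0.09). The larger part of the list's difference thus lay in its 3 cytokine genes.

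**Figure D2:**
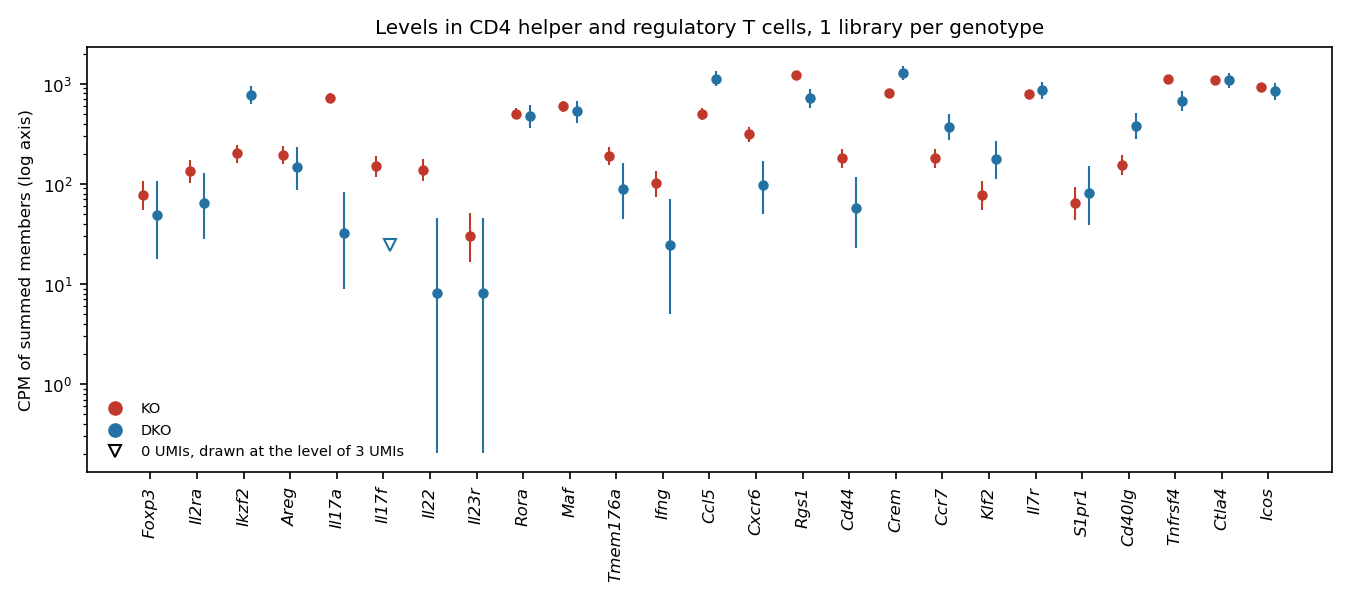
Levels (CPM, log axis) of lineage, residence and costimulation genes in the summed members of KO (red) and DKO (blue), with exact 95% intervals for counting error; an open triangle marks 0 UMIs, drawn at the level of 3 UMIs. Il17a stands at 727 CPM in KO and 32.5 CPM in DKO, while Rora and Maf lie close together. Of the genes of the rule, drawn as a description only, Ctla4 and Icos lie close together and Tnfrsf4 and Cd40lg lie apart.

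Foxp3 transcripts were found in members of both libraries, with intervals that overlapped. Foxp3 (chromosome X, 7573644 to 7595245, plus strand) had 36 UMIs in 16 KO members and 6 UMIs in 4 DKO members, or 77.9 CPM (54.5 to 108) and 48.8 CPM (17.9 to 106). The log2 ratio of -0.58 had an interval from -2.21 to 0.59. After thinning, 6.0% (2.23 to 12.6) of KO members and 0 of 34 DKO members had a UMI. The latter allows up to 8.82% by 3 counts, or 10.3% by the exact interval. Without thinning the shares were 16.0% (9.43 to 24.7) and 11.4% (3.20 to 26.7). A difference in the share of Foxp3-positive cells was not detectable at this depth. Foxp3 was found in 5 of 166 KO cytotoxic lymphocytes and in 0 of 1266 KO Csf1r-positive cells.

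Among the other genes of regulatory T cells, Ikzf2 stood apart. Ikzf2 (chromosome 1, 69531214 to 69687245, minus strand), which encodes the transcription factor Helios, had 93 UMIs in 27 KO members and 95 UMIs in 12 DKO members, or 201 and 772 CPM (log2 ratio 1.94, 1.51 to 2.37). Its highest cell held 18.3% and 21.1% of the UMIs. Helios is not limited to regulatory T cells here. Ikzf2 had 921 UMIs in 116 of 166 KO cytotoxic lymphocytes and 438 UMIs in 53 of 60 DKO ones. That was 1050 and 1631 CPM, so it was higher in DKO in that class too. Of the 12 DKO members with Ikzf2, 9 had no Foxp3 UMI. Il2ra, the high-affinity IL-2 receptor chain, was at 134 and 65.0 CPM (log2 ratio -0.97, -2.32 to 0.02). Areg, a growth factor for tissue repair, was at 195 and 146 CPM (-0.38, -1.23 to 0.33), and Tnfrsf18 (GITR) at 504 and 398 CPM (-0.33, -0.82 to 0.11). Il10 itself had 24 UMIs in 6 KO members and 7 UMIs in 1 DKO member. Of the 18 genes of this list 9 were compared, 1 was past 2-fold higher (Ikzf2), 0 were past 2-fold lower, and the median was -0.33. The shares over all 2602 genes were 3.42% higher and 7.3% lower. The sum over the list had a log2 ratio of 0.20 (-0.0012 to 0.40), and with Ikzf2 left out one of -0.26 (-0.51 to -0.03), so that the median and the full sum differed in sign.

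Cells with Foxp3 and cells with IL-17 genes were mostly different cells. In KO, 1 member had both a Foxp3 and an Il17a UMI, none of the 16 Foxp3-positive members had an Ifng UMI, and 6 of the 26 Il17a-positive members had one. In DKO, no member had Foxp3 together with any of these. A UMI of Ccr7, Lef1 or S1pr1, genes of circulating T cells, was found in 9 of the 16 Foxp3-positive and 5 of the 26 Il17a-positive KO members. In all, 73 KO and 21 DKO members had a UMI of at least 1 of these genes, of Foxp3, of Ifng or of the IL-17 genes. The remaining 27 and 14 showed none at this depth. Counts of this kind are limited by the few UMIs per cell and are given as a description.

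The Foxp3-positive members were set beside the Foxp3-negative ones with both libraries summed (20 and 115 cells). Of the same 2602 genes, 7.46% were past 2-fold higher and 9.76% past 2-fold lower in the Foxp3-positive cells. The leading higher genes included the guanylate-binding protein gene Gbp7 (275 against 22.2 CPM), the granzyme gene Gzmb (1168 against 144 CPM), the nucleic acid sensor Zbp1 (330 against 40.4 CPM), the interferon-induced GTPase Iigp1 (463 against 74.8 CPM), Sh2d1a, which encodes the signalling adaptor SAP (562 against 93.0 CPM), the metallothionein gene Mt1 (176 against 32.3 CPM) and Areg (573 against 113 CPM). Gm45716, Tmed3 and Faim completed the 10. The difference in Areg lay in KO, where 1 Foxp3-positive cell held 37 of the 90 UMIs. In DKO Areg was at 146.1 CPM in Foxp3-positive and 146.3 CPM in Foxp3-negative members, from 3 and 15 UMIs. Gzmb was found in 10 of 20 Foxp3-positive and 19 of 115 Foxp3-negative members. The DKO side rested on 4 Foxp3-positive cells. In them, 39 Gzmb UMIs lay in 2 cells, 14 Tmed3 UMIs in 2 and 12 Sh2d1a UMIs in 1, and Zbp1 and Mt1 had 1 UMI each. Only Foxp3 was left out of this comparison, so genes of the rule could be named. On the lower side Cd40lg, a helper gene of the rule and so a description only, had 0 UMIs in the 20 Foxp3-positive cells. It had 119 UMIs in 42 of the others, and Ifng had 0 and 50. The transforming growth factor receptor gene Tgfbr2 (0 and 47 UMIs), the naive-cell factor Lef1 (0 and 42), the killer-cell receptor gene Klrd1 (0 and 41), Nr4a2 (0 and 34), Nmrk1, Nfe2l2, Dbf4 and Il17a (2 and 338) made up the rest.

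Cd4, a gene of the rule, was unevenly found among these subsets. It was present in 1 of 16 Foxp3-positive KO members, or 6.25% (0.158 to 30.2), and in 40 of 84 Foxp3-negative ones, or 47.6% (36.6 to 58.8). The Foxp3-positive cells were not shallower, with a median of 4122.5 UMIs against 3653. Among KO cells with an IL-17 gene UMI it was found in 16 of 27, or 59.3% (38.8 to 77.6), and among the other KO members in 25 of 73, or 34.2% (23.5 to 46.3). In DKO the counts were 1 of 4 Foxp3-positive and 6 of 31 Foxp3-negative members. Most members with Foxp3 thus rested on Icos, Ctla4 and Tnfrsf4 for their place in the group.

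Carriers of an Il17a, Il17f or Il22 UMI were also compared with the other KO members, a comparison chosen after their values were seen. S1pr1, the receptor that lets T cells leave tissue, had 0 UMIs in the 27 carriers and 30 UMIs in 14 of the other 73. Ikzf2 was at 26.4 CPM in the carriers and 322 CPM in the others, and Klf2, which drives S1pr1, at 10.6 and 125 CPM. On the other side were Top2a (248 and 14.6 CPM), Stmn1 (386 and 58.6 CPM), Tubb5 (655 and 125 CPM) and Tmem176a (349 and 80.6 CPM). The first 3 of these are genes of dividing cells, and 47 of the 51 Top2a UMIs lay in 6 carriers. The 2 KO members with over 4000 genes were both carriers and held 29 of these UMIs, and without them Top2a was at 127 and 14.6 CPM, Stmn1 at 176 and 58.6 CPM and Tubb5 at 508 and 125 CPM. Il23r was found in 6 carriers and 4 other KO members, and Cxcr6 in 17 of the 27. Tcrg-C1 had 12 UMIs in 10 carriers and 8 UMIs in 6 other KO members, or 63.4 and 29.3 CPM. Trac was found in 18 of the 27 carriers and Trdc in 0. Whether some carriers were gamma-delta T cells was not tested.

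Of the 5 type 1 helper genes compared, 4 had ratios below 0 and only Ccl5 lay above 0, with a median of -0.88. Past 2-fold were 2 lower and 1 higher, against 7.3% and 3.42% over all 2602 genes. The sum, with Ccl5 in it, had a log2 ratio of 0.18 (-0.05 to 0.41). Ifng, the interferon-gamma gene, had 47 UMIs in 16 KO members and 3 UMIs in 3 DKO members, or 102 CPM (74.7 to 135) and 24.4 CPM (5.03 to 71.2), a log2 ratio of -1.85 (-4.39 to -0.42). The IL-18 receptor gene Il18r1 was at 231 and 122 CPM (-0.88, -1.81 to -0.14). In contrast, Ccl5, a chemokine gene of effector T cells, was at 497 CPM (435 to 566) in 26 KO members and 1121 CPM (942 to 1325) in 10 DKO members, a log2 ratio of 1.17 (0.86 to 1.48). Ccl5 is abundant in the cytotoxic lymphocytes next to the members, and without the limit on cytotoxic genes its ratio turned to -1.27. Tbx21, the lineage factor T-bet, had 6 UMIs and 1 UMI, and Eomes none.

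Type 2 and follicular helper genes were sparse. Il4, Il5 and Il13, the type 2 cytokine genes, had 0 UMIs in both libraries, and Gata3 had 22 UMIs in 17 KO and 2 UMIs in 2 DKO members. Il1rl1, the IL-33 receptor gene, was found in 10 KO members, 5 of them Foxp3-positive, and in 1 DKO member. Cxcr5, the follicular homing receptor, had 1 UMI in KO and 0 in DKO, Bcl6 had 16 and 5, and Il21 had 4 and 3. Sh2d1a was the follicular gene with enough UMIs, at 158 and 195 CPM (log2 ratio 0.32, -0.43 to 0.99).

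Among genes of circulating T cells Ccr7 and Klf2 were higher in DKO, and among residence genes Cxcr6 was lower. All 8 circulating genes compared had ratios above 0, 2 of them past 2-fold, against 3.42% past 2-fold higher over all 2602 genes. Their median was 0.14 and their sum 0.25 (0.07 to 0.43). Under TMM scaling, however, 5 were above 0, Ccr7 was at 0.95 and the sum was at 0.15. Ccr7 (chromosome 11, 99144196 to 99155077, minus strand), the receptor for homing to lymph nodes, had 182 CPM (145 to 225) among KO and 374 CPM (274 to 499) among DKO members, so that its log2 ratio was 1.05 (0.49 to 1.58). Klf2 was at 77.9 and 179 CPM (1.21, 0.36 to 2.0). Ratios of the other 6 genes, Tcf7, Lef1, Il7r, S1pr1, Satb1 and Ms4a4b, lay between 0.003 and 0.37 with intervals that included 0. Ccr7 and Klf2 thus led the list.

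Cxcr6 (chromosome 9, 123806475 to 123811760, plus strand), a chemokine receptor of tissue-resident T cells, had 145 UMIs in 45 of 100 KO members and 12 UMIs in 7 of 35 DKO members, or 314 CPM (265 to 369) and 97.5 CPM (50.4 to 170). Its log2 ratio was -1.63 (-2.67 to -0.84). Rgs1, a dampener of chemokine signalling, was at 1235 and 715 CPM (-0.78, -1.13 to -0.46), whereas Crem, a transcriptional repressor of activated T cells, was at 809 and 1276 CPM (0.66, 0.38 to 0.93). For the gut-homing receptor gene Ccr9 the counts were 16 and 0 UMIs, and for Itgae (CD103) 20 and 1. Rgs2, Itga4 and Itgb7, the last 2 encoding the gut-homing integrin, had log2 ratios of 0.02, -0.10 and 0.27, each with an interval that included 0. Of the 8 residence genes compared, 1 was past 2-fold lower (Cxcr6, against 7.3% over all genes), 0 were past 2-fold higher (3.42%) and the median was -0.23. Residence genes did not move as a block, and the sum's log2 ratio was -0.18 (-0.35 to -0.02).

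Costimulation genes were split as well. Cd40lg, a rule gene, had 156 CPM (122 to 196) among KO and 382 CPM (281 to 508) among DKO members, and Cd27 at 71.4 and 171 CPM (log2 ratio 1.27, 0.39 to 2.09). Cd44, the adhesion receptor of activated T cells, was at 182 and 56.9 CPM (-1.58, -3.03 to -0.57). The rule genes Ctla4 and Icos were nearly level, at 1099 and 1089 CPM and at 917 and 837 CPM, while Tnfrsf4, also of the rule, was at 1123 and 674 CPM (-0.73, -1.09 to -0.40). Cd28 and Tnfrsf9 (4-1BB) had log2 ratios of -0.002 and 0.01. Of the 5 genes compared that the rule did not use, 1 was past 2-fold higher (Cd27) and 1 past 2-fold lower (Cd44), with a median of -0.002. Among all 2602 genes the shares were 3.42% and 7.3%.

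Summed over the T cell receptor genes the libraries were close, although single genes differed. Without the rule genes Cd3d, Cd3e and Cd3g, 13 genes were compared, of which 11 lay within 2-fold and 2 were past 2-fold lower, against 7.3% over all 2602 genes. The median was 0.19 and the sum -0.0009 (-0.14 to 0.14). The beta-chain constant genes Trbc1 (chromosome 6, 41538218 to 41539881, plus strand) and Trbc2 (chromosome 6, 41546730 to 41548352, plus strand) are nearly identical, so reads may be split between them. Trbc1 alone was found in 9 KO and 3 DKO members, Trbc2 alone in 45 and 20, both in 41 and 5 and neither in 5 and 7. Of 176 T cell receptor variable genes in the table, 31 had a UMI in a member. The genes past 2-fold were Thy1, a surface glycoprotein of T cells, at 272 and 89.4 CPM (-1.55, -2.65 to -0.72), and the kinase gene Zap70, with 45 and 5 UMIs (-1.14, -2.95 to 0.07).

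**Figure D3:**
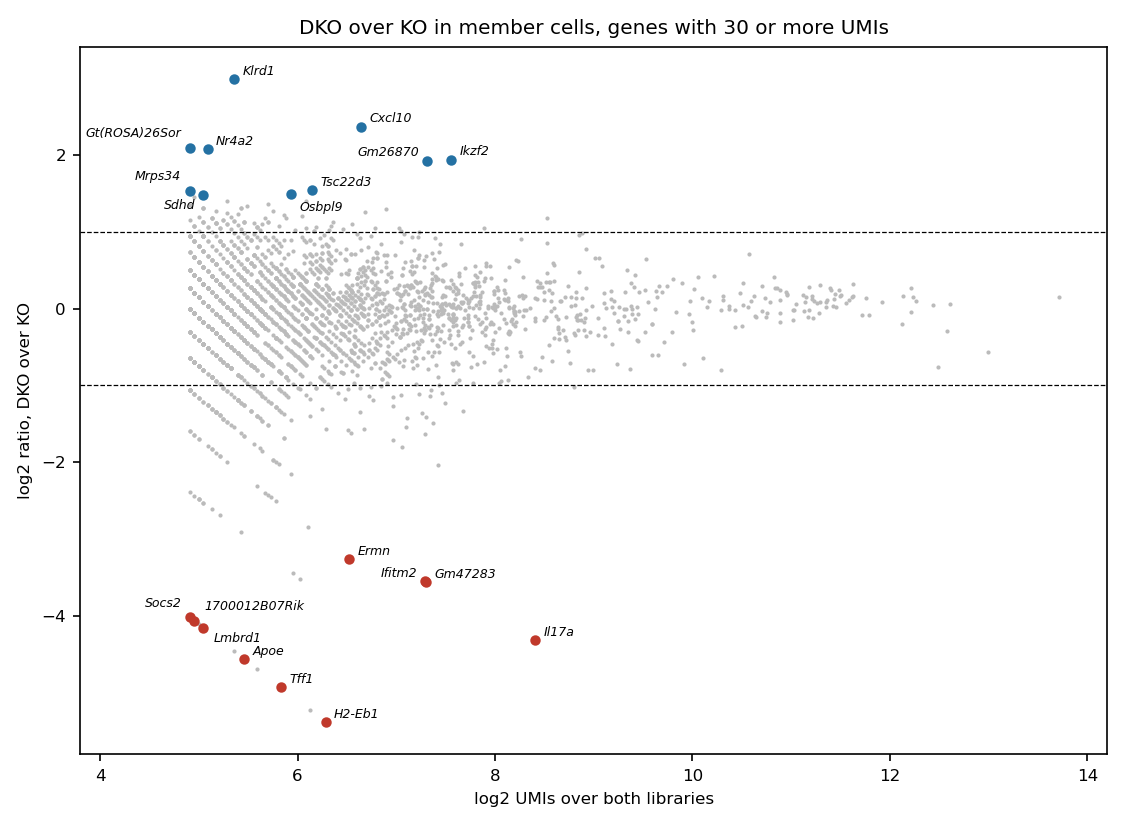
Log2 ratio of DKO over KO in the summed members against log2 of the UMIs over both libraries, for 2602 genes with 30 or more UMIs; dashed lines mark 2-fold. Coloured and named are the 10 genes highest and the 10 lowest in DKO among those found in 10 or more members; for genes at 0 UMIs in DKO the point depends on the 0.5 counts added and is no estimate of the fold.

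Across all genes, 89 were past 2-fold higher and 190 past 2-fold lower in DKO, and under TMM scaling these numbers were 57 and 218. The gene with the highest ratio was Klrd1, which encodes CD94, a receptor of natural killer cells and some T cells, with 13 UMIs in 7 KO members and 28 UMIs in 7 DKO members (28.1 and 228 CPM, log2 ratio 2.99, 2.02 to 4.09). In cytotoxic lymphocytes Klrd1 had 424 UMIs in KO and 198 in DKO, or 484 and 737 CPM, so it was higher in DKO there too. Nr4a2, an immediate response gene of receptor signalling, was at 34.6 and 146 CPM (2.08, 1.02 to 3.15), and Tsc22d3, the glucocorticoid-induced leucine zipper, at 86.5 and 252 CPM (1.55, 0.82 to 2.25). The noncoding Gt(ROSA)26Sor (2.10, 0.97 to 3.25), Mrps34 (1.54, 0.36 to 2.65), Osbpl9 (1.49, 0.69 to 2.25), Sdhd (1.48, 0.36 to 2.54) and Ikzf2 were spread over 7 to 14 DKO cells each. The chemokine gene Cxcl10 (2.37) and Gm26870 (1.93) were not: 46 of 58 DKO UMIs of Cxcl10 and 79 of 80 of Gm26870 lay in 1 cell, and without the highest cell of each library Gm26870 turned to -2.66.

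Among the 10 genes lowest in DKO, some belong to other cells and some to T cells. H2-Eb1, an MHC class II chain, had 78 UMIs in KO and 0 in DKO, but 62 of the 78 lay in 1 cell, and Apoe had 44 UMIs in 16 KO members and 0 in DKO. Cd74, the MHC class II chaperone, had 162 UMIs in KO, 74.1% of them in 1 cell, and 10 in DKO. The macrophage RNA described above moved with these genes. Over members with at most 1 UMI summed over Lyz2, Apoe, Cd14, C1qa, C1qb and C1qc, 91 in KO and 35 in DKO, the log2 ratio of Cd74 was 0.013. Tff1, a trefoil peptide gene, had 57 UMIs in 12 KO members and 0 in DKO, a KO level 5.06-fold the DKO floor. The exact interval of its log2 ratio ended at -1.99. Its other UMIs were 35 in 12 KO cytotoxic lymphocytes, 1 in another KO T cell and none in B cells or Csf1r-positive cells. In DKO the cytotoxic lymphocytes had 0 Tff1 UMIs as well. Its KO carriers were thus all lymphocytes among the classes compared.

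The rest of these genes had few or no DKO UMIs and were spread over many KO members. Lmbrd1, of lysosomal vitamin B12 export, had 33 UMIs in 27 KO members and 0 in DKO. Its KO level was 2.93-fold the DKO floor, and the exact interval of the log2 ratio ended at -1.17. Socs2, a feedback inhibitor of cytokine signalling, had 30 UMIs in 20 KO members and 0 in DKO (2.66-fold the floor, interval ending at -1.02). For 1700012B07Rik there were 31 UMIs in 17 KO members and 0 in DKO (2.75-fold the floor, interval ending at -1.07). Ermn, which encodes an actin-binding protein, had 90 UMIs in 31 KO members and 2 UMIs in 2 DKO members (log2 ratio -3.27, -6.65 to -1.69). In other KO cells Ermn had 29 UMIs in 12 cytotoxic lymphocytes and none in B cells. The 60 DKO cytotoxic lymphocytes had 0 Ermn UMIs, so the contrast was seen in that class too. Ifitm2, an antiviral membrane protein gene, had 154 UMIs in 28 KO members and 3 UMIs in 2 DKO members (-3.55, -6.07 to -2.20). It is abundant in Csf1r-positive cells, with 8299 UMIs in KO and 2060 in DKO, or 1092 and 1280 CPM.

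Gm47283 (chromosome Y, 90784738 to 90816464, plus strand) had 155 UMIs in 67 KO members and 3 UMIs in 3 DKO members. The same contrast was seen in every other class, with 428 and 0 UMIs in cytotoxic lymphocytes, 247 and 0 in B cells and 2032 and 2 in Csf1r-positive cells, so it was seen in the whole libraries and was not particular to T cells. Of other genes on this chromosome, Uty, Kdm5d, Eif2s3y and Ddx3y were at 0 in all cells of both libraries, and Xist was found in 88 KO and 30 DKO members. Reads of Gm47283 may be shared with near-identical sequence elsewhere, so its values are uncertain. Whether the donors differed beyond the named deletions was not tested, and such a difference cannot be told apart from that of Cers2 in any ratio of DKO over KO.

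Pathways of the study's wider question were followed in the same cells. Of 21 sphingolipid genes 6 could be compared, of which 1, the glucosylceramide synthase gene Ugcg, was past 2-fold higher, at 43.3 and 106 CPM (log2 ratio 1.31, 0.16 to 2.37), and 0 were past 2-fold lower. For all 2602 genes these shares were 3.42% and 7.3%. The remaining ceramide synthase genes Cers4 (13 and 6 UMIs), Cers5 (19 and 3) and Cers6 (1 and 0) were too sparse. The sum over the list had a log2 ratio of -0.12 (-0.48 to 0.22). Of the IL-10 receptor pathway 5 genes were compared and 0 were past 2-fold, with Stat3 at 340 and 358 CPM (0.09, -0.44 to 0.56), Jak1 at 305 and 317 CPM (0.07, -0.50 to 0.58) and Socs3 at 95.2 and 81.3 CPM (-0.17, -1.38 to 0.78). For these downstream genes no difference past counting error was seen.

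NF-kB genes gave 0 past 2-fold higher and 2 past 2-fold lower of 12, with a median of -0.20. Over all 2602 genes, 3.42% were past 2-fold higher and 7.3% lower. The 2 were Nfkbiz, a nuclear co-activator, at 121 and 40.6 CPM (-1.45, -3.25 to -0.27), and Rela, the p65 subunit, with 37 and 4 UMIs (-1.15, -3.25 to 0.18). Traf1 was at 296 and 528 CPM (0.84, 0.38 to 1.27). Of 11 interferon response genes compared, Irf1 was past 2-fold higher, at 136 and 325 CPM (1.26, 0.64 to 1.85), and Zbp1 past 2-fold lower, at 97.3 and 40.6 CPM (-1.14, -2.95 to 0.07). Ly6a (Sca-1) was at 532 and 276 CPM (-0.93, -1.51 to -0.42) and Ifi27l2a at 1542 and 1934 CPM (0.33, 0.11 to 0.54). The interferon list thus had members in both directions, with a median of 0.11.

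Stress and proliferation genes followed, with few clear members. Of 14 immediate early and stress genes compared, Fos was past 2-fold higher, at 88.7 and 203 CPM (1.21, 0.42 to 1.95), and Hspa1a and Hspa1b, the inducible heat shock genes, past 2-fold lower, at 90.8 and 8.13 CPM (-2.91, -8.82 to -0.93) and at 99.5 and 40.6 CPM (-1.17, -2.98 to 0.03). By comparison, 3.42% of all 2602 genes were past 2-fold higher and 7.3% lower. Hsp90aa1 was at 924 and 528 CPM (-0.80, -1.21 to -0.43). The 10 cell cycle genes summed to a log2 ratio of -0.59 (-0.94 to -0.26), but this rested on 2 KO members with over 4000 genes each, without which it was 0.20. In the innate lymphoid list Id2, a factor of effector lymphocytes, was at 301 and 114 CPM (-1.36, -2.31 to -0.61), and Ccr2, a chemokine receptor of monocytes and effector T cells, had 152 UMIs in 48 KO members and 14 UMIs in 5 DKO members.

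**Figure D4:**
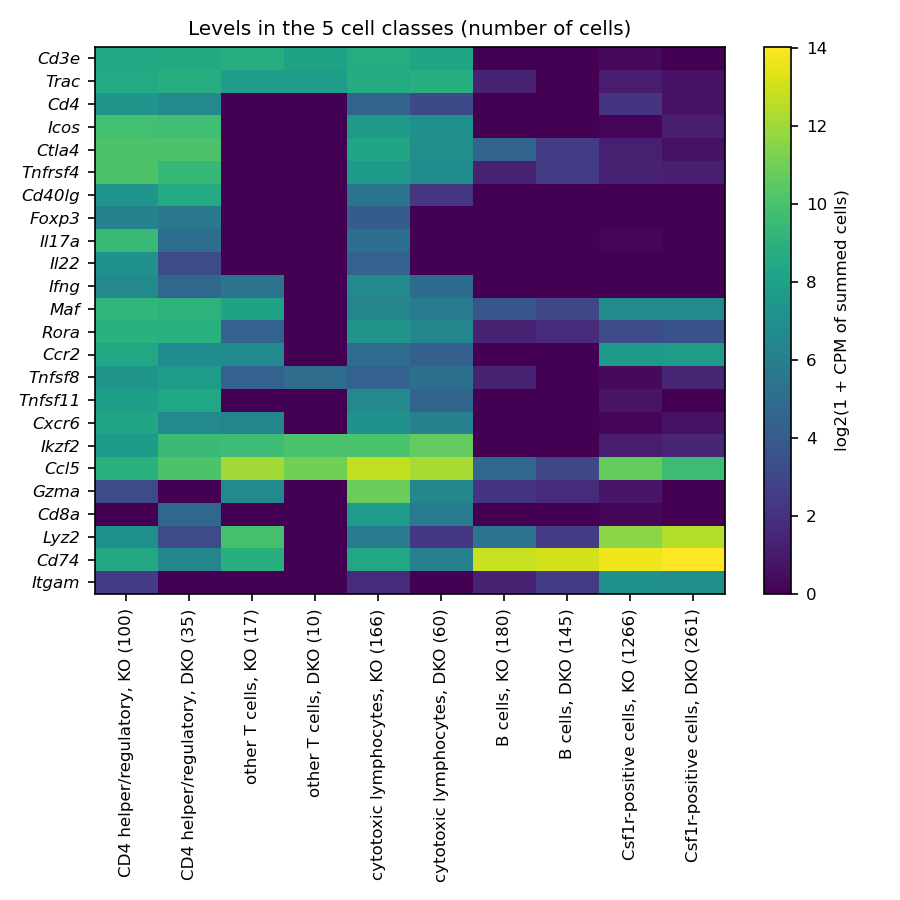
Level, as log2(1 + CPM) of summed cells, of 24 genes in the members, in other T cells, cytotoxic lymphocytes, B cells and Csf1r-positive cells of each library, with the number of cells in brackets. Il17a, Tnfsf11, Tnfsf8 and Maf are brightest or near it in the members, Gzma in the cytotoxic lymphocytes, and Lyz2 and Cd74 in the Csf1r-positive cells.

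The members were set beside the nearest classes to see where they differ in genes the rule did not use. The cytotoxic lymphocytes (166 KO and 60 DKO cells) had 4 or more UMIs of the cytotoxic genes, and other T cells (17 and 10) met the T cell limit without a helper gene. Since the classes were cut from the same cells, these values are a description. Against cytotoxic lymphocytes, both libraries summed, 3.71% of 5450 genes were past 2-fold higher and 5.3% past 2-fold lower in the members. Il17a led the higher genes, at 581 against 26.2 CPM. The transcription factor gene Maf was at 581 against 76.8 CPM, Ccr2 at 284 against 27.9 CPM, and Tnfsf8 (CD30 ligand) at 171 against 23.6 CPM. Iigp1, Ermn, Ccr1, Serpina3f and the leukotriene receptor genes Cysltr1 and Ltb4r1 completed the 10. Iigp1 was at 135 against 8.73 CPM, Cysltr1 at 46.1 against 2.62 CPM and Ltb4r1 at 56.4 against 6.11 CPM.

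Among the 10 genes lowest in the members, Gzma (granzyme A) was at 6.83 against 1474 CPM, Cd8a at 5.12 against 173 CPM and Klra1, a killer-cell receptor gene, at 1.71 against 75.1 CPM. Prf1 (perforin), Crtam, the gamma-chain variable gene Tcrg-V1, Car2, Gm26909, Ncf1 and Vegfa had 0 UMIs in all 135 members and 31 to 92 UMIs in the cytotoxic lymphocytes. None of these 10 genes was used by the rule.

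Against the other T cells, 16.2% of 2883 genes were past 2-fold higher and 6.31% past 2-fold lower in the members, with 80675 UMIs in all behind the other T cells. Il17a, Tnfsf11 (RANKL, 143 UMIs in 46 members), the fatty acid-binding protein gene Fabp5 (237 in 41), Serpinb1a (133 in 34), Areg (108 in 23), Il2ra (70 in 36), Ckb (67 in 39) and Top2a (57 in 12) had 0 UMIs in the other 27 T cells, and Rora and Cd82 had 1 each. Lower in the members were Ccl5, at 629 against 3483 CPM, Lef1, at 71.7 against 372 CPM, the survival gene Bcl2, at 42.7 against 198 CPM, and Klhdc2, Tubb2a, Rps6kb1, Amd1, Sft2d2, Atf7ip and Pdrg1. Most of the named higher genes were thus not found in the other T cells, whose few cells set how low a level could be seen.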

How the data were processed

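The authors deposited, per library, a matrix of raw UMI counts of 31053 genes by cell barcode, with its gene and barcode lists. The submitters' processing notes name Cell Ranger 6.0.1, Seurat 4.3.0 and the mm10 build. The libraries were made with a 10x 3' kit, and CPM and ratios below were computed here from the deposited counts. Totals were 12549471 UMIs in 2584 KO barcodes and 3414944 in 742 DKO barcodes. The cell filter asked for 300 to 5000 genes and no more than 10% of UMIs from mitochondrial genes, and kept 2443 and 730 barcodes. The members, gene lists and rule for named genes were chosen with earlier results of these data known. UMIs of members were summed per library. The log2 ratio of CPM used 0.5 added counts, and intervals were exact (Poisson, Clopper-Pearson, or conditional for ratios). Genes with 30 or more UMIs over both libraries entered counts past 2-fold. Named are the genes of the rule, the targeted genes, list genes, and the 10 highest and 10 lowest ratios among such genes found in 10 or more cells. For comparisons between cell classes and by Foxp3, the direction, judged on ratios with the 0.5 counts added, had also to be the same in each library. Shares of cells were also computed with each cell thinned to 1000 UMIs, which left out 1 DKO member. Doublets were not removed in the main values. Scrublet, run through scanpy 1.11.5, called 6 KO and 1 DKO barcodes (2 and 0 members), under 0.5% of cells, and as an alternative the highest 5% of scores were left out. Gene positions are from GENCODE M21 on GRCm38, the assembly of mm10. Python 3.11.15, numpy 2.4.6, scipy 1.17.1 and pandas 2.3.3 were used, and the ratio script was tested on simulated data. Alternatives changed the cell filter, each limit of the rule, the minimum of UMIs, the scaling (TMM in edgeR) and the weight of cells. Some genes are not reported here.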

Additional observations from a re-analysis of the deposited data

How the results depend on the processing

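The log2 ratio of the type 17 list was below 0 under every alternative run. The highest cell was left out for single genes only, so the list's dependence on 1 KO cell was not tested. It moved to -0.62 with 2 helper gene UMIs required, -0.29 with a Cd4 UMI required (41 KO and 7 DKO members) and -0.58 without the limit on cytotoxic genes. For the named genes, 2082 of 2205 alternative values stayed within the counting interval, 112 moved and 11 changed sign. The lower values of macrophage and antigen presentation genes in DKO rested on a few KO cells. As an alternative, members had at most 1 UMI summed over Lyz2, Apoe, Cd14, C1qa, C1qb and C1qc. That choice itself bounds the macrophage list, which holds more genes. The list ratios were then 1.06 and -0.24, with Cd74 at 0.013, Lyz2 at 3.36 and Tyrobp at 0.19. In DKO Lyz2, a gene of that limit, had 1 UMI and Tyrobp 0. The ratios of Lyz2 and Tyrobp thus depend on the 0.5 counts added and are no estimate of the fold. Without the highest 5% of doublet scores the list ratios were -0.37 and -0.45. The cell cycle list turned to 0.20 and Pclaf to 0.65 with a stricter cell filter, and likewise without the 2 KO members over 4000 genes, an alternative added after seeing the data. No other cause was tested.

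The T cell receptor and costimulation lists here include genes of the rule. With 2 helper gene UMIs required the lists were -0.15 (type 1), 0.13 (costimulation), 0.47 (interferon) and -5.30 (macrophage). With a Cd4 UMI required the members were 1.68% of KO and 0.959% of DKO cells, the thinned Foxp3 share of KO was 0, and the lists were 0.30 (T cell receptor), 0.60 (regulatory), 0.78 (circulating), 0.10 (residence), 0.69 (NF-kB), -2.74 (cell cycle) and -5.80 (macrophage). Under that choice Cxcl10 and Ugcg were each at -0.14, Fos at -0.64 and Gm26870 at -1.73. With cytotoxic genes under 2 UMIs the KO member share was 2.99%, and the lists were -0.063 (type 1), -0.24 (cell cycle) and -4.83 (macrophage). Without the limit on cytotoxic genes the shares were 8.47% and 6.71%, the thinned Il17a share of KO 6.76%, the genes past 2-fold 143 higher and 401 lower, and the lists -1.10 (type 1), 0.61 (circulating), 0.031 (costimulation), 0.49 (interferon), -0.26 (cell cycle), -1.15 (macrophage) and -1.36 (antigen presentation), with Ccl5 at -1.27.

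With each cell of equal weight the lists were -0.0755 (T cell receptor), 0.057 (circulating), -0.35 (residence), -0.10 (immediate early and stress), 0.005 (interferon) and 0.44 (cell cycle). Without thinning, Foxp3 shares were 16.0% and 11.4%, and the Il17a share of KO was 26%. Genes past 2-fold numbered 411 higher and 711 lower with a minimum of 10 UMIs, 25 and 53 with 60, and 1966 and 1423 with none. Under TMM, which moved the median of all genes by -0.10, 57 genes were higher. Without the highest cell of each library Gm26870 was at -2.66. No paired analysis was possible because there was 1 library per genotype, and no library could be left out. The 35 DKO members, at 24.4 CPM for 3 UMIs, limit what can be seen of low genes.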
